A study of Sus scrofa with 599 samples.

Results

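The genes described here are 10 genes that mark or equip the resident macrophages of tissues: MARCO, CD163, MRC1, LYVE1, FOLR2, TIMD4, C1QA, C1QB, C1QC and CSF1R. They were found by their symbols among the 21280 protein-coding genes (PCGs) of the series, and all 10 had a single entry in the pig annotation. The list was selected on measured values in part, because MARCO was higher in mesenteric fat after weight loss in these samples, so that comparison is described for every member without a test, and the levels of MARCO in mesenteric fat are a description throughout. MARCO is a description as well wherever it passed the filter on low values only through the group in which it is higher. RNA was sequenced from adipose tissues (ATs) of adult female Bama pigs, a miniature breed, aged 2 years. Controls on normal chow are called NC. The weight-gain group, WG, was fed high-fat chow over 22 weeks, and the weight-loss group, WL, had the same feeding and was then restricted to 10% of the normal intake during 12 weeks. Visceral fat was taken from the greater omentum (GOM), the mesentery (MAD) and the retroperitoneum (RAD), and subcutaneous fat from the upper layer of the backfat (ULB). The libraries numbered 9, 12, 12 and 5 in NC, 45, 36, 39 and 38 in WG and 10 in each depot of WL, in the order GOM, MAD, RAD and ULB.

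Resident macrophages live in a tissue for long periods, where they clear dying cells, modified lipoproteins and haemoglobin, and in adipose tissue they lie along vessels and between adipocytes. They depend on CSF1R, the receptor for the growth factors CSF1 and IL34, and they read their surroundings through scavenger and clearance receptors such as CD163, MRC1, MARCO and TIMD4. They are also a main source of C1q, the recognition molecule of the classical complement pathway, which is built from the chains encoded by C1QA, C1QB and C1QC. LYVE1, the hyaluronan receptor, is carried by a set of perivascular macrophages and also by lymphatic endothelium, and FOLR2, a folate receptor, marks resident macrophages in several tissues. The tissue was sequenced whole, so fewer macrophages and less RNA per macrophage cannot be told apart in any of the values below.

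The libraries held 3337098 to 22939420 estimated counts on PCGs, with a median of 16791659. General macrophage genes were measured in every group, and 9 of the 10 listed markers (among them TYROBP, FCER1G, AIF1 and CD68) had a symbol match. Their summed level, in TPM, a measure of transcript abundance corrected for transcript length and library depth, had group medians from 354 TPM in NC MAD to 953 TPM in WG GOM. The libraries also differed in how much of their summed TPM lay on PCGs, and 40 of them had a share below 88%: 7 of 9 in NC GOM, 6 of 12 in NC RAD, 6 of 10 in WL GOM and 6 of 10 in WL MAD, but 6 of 158 in WG. Values within these sets are given beside the results they touch. A single WG GOM library, replicate 35, had the fewest counts of all. It held the lowest level of its group in 9 of the 10 genes and the highest of CSF1R, at 438 TPM against at most 209 TPM in the other 44. Leaving it out lost no call of a member, and gave 30 calls between diets in place of 29.

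C1QC, C1QB and CD163 were the most abundant members, and MARCO and TIMD4 the least. C1QA, with a median of 73.5 TPM over all libraries, ranked below MRC1 at 116 TPM. TPM is scaled by transcript length, so levels can be compared between genes. Over all libraries the median level was 277 TPM for C1QC, which ranked above 98.1% of PCGs in the median library, and the percentiles of C1QB, CD163 and MRC1 were 97.2, 95.9 and 94.6. TIMD4 stood at the 46.2 percentile and MARCO at 36.4, with a median of 0.999 TPM and a range from 0.0 to 72.2 TPM. The order of the group medians differed between members. GOM held the highest median of MARCO (4.37 TPM in WG), CD163 (256 TPM in WG), LYVE1 (127 TPM in WL), TIMD4 (12.9 TPM in NC), C1QA (147 TPM in WL), C1QB (395 TPM in NC) and C1QC (521 TPM in WL). WL ULB held the highest median of MRC1 (179 TPM), FOLR2 (115 TPM) and CSF1R (109 TPM). NC MAD held the lowest median of 7 members and NC RAD, NC GOM and WG RAD that of MARCO, FOLR2 and LYVE1. The ratio of the highest to the lowest group median was 23 for MARCO and 8.43 for TIMD4, and lay between 2.39 and 5.63 for the other 8 genes.

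**Figure D1:**
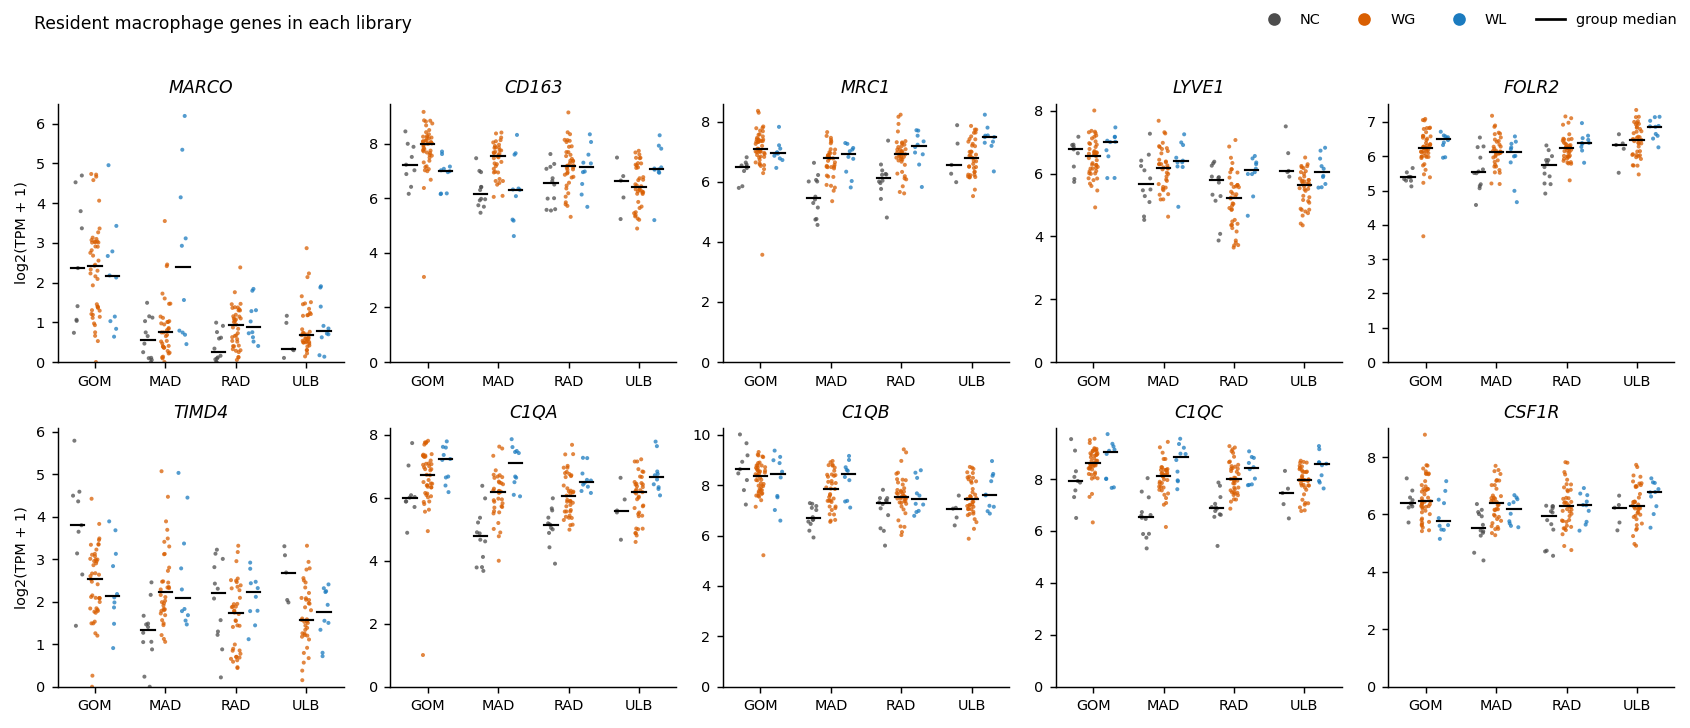
Level of each of the 10 genes in every library, as log2(TPM + 1), by depot (x axis) and diet (colour), with a black line at the group median. MARCO and TIMD4 lie low and spread widely, with GOM above the other depots in NC, and the 3 C1q genes lie at their lowest in NC MAD, where the median of C1QA is 26.3 TPM.

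The C1q genes lie side by side on chromosome 6 of the Sscrofa11.1 assembly, within 19818 bases, in the order C1QA, C1QC and C1QB, all on the forward strand. C1QA ends 3377 bases before C1QC starts, and C1QC ends 4215 bases before C1QB. Because all 3 chains rose together in MAD, as given below, the 250 bases before each annotated start are shown, 5′ to 3′ on the forward strand of the reference genome, at chr6:80586009-80586258 for C1QA, chr6:80592341-80592590 for C1QC and chr6:80601430-80601679 for C1QB. Capitals mark GAGGAA, the core that myeloid ETS factors such as PU.1 bind, or its reverse complement TTCCTC.
C1QA: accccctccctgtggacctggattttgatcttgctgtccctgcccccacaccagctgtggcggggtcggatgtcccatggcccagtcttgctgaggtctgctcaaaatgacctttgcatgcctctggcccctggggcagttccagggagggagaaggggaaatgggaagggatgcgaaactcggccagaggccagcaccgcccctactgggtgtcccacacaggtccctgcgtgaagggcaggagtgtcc
C1QC: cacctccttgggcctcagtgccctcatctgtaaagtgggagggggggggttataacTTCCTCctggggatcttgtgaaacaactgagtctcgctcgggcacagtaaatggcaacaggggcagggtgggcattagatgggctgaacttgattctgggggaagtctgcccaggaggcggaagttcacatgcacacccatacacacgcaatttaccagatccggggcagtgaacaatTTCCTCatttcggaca
C1QB: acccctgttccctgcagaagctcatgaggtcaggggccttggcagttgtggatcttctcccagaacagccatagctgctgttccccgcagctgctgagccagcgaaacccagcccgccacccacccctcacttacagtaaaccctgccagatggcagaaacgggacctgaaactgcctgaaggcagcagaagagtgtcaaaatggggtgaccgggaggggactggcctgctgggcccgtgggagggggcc
The window of C1QC held 2 matches, which begin 194 and 16 bases before the start, and those of C1QA and C1QB held 0. Of all 10 members, MRC1, LYVE1, TIMD4 and C1QC had a match in this window, 4 of 10, against 22% of the windows of 19559 PCGs. A match is a description of the letters and not a measured site.

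In MAD the members were higher in WG than in NC, which asks how these genes differ after weight gain. Of the 9 members that passed the filter on low values, 7 rose (more than 1.5-fold, with an edgeR adjusted p under 0.05) and 0 fell, where 5.38% of the 13845 PCGs tested were called higher and 5.29% lower. The median change of the 9 was 0.95 on the log2 scale, against -0.01 over all genes tested. The general macrophage markers did the same, with 7 of 9 higher, 0 lower and a median of 0.95, and their part in the change of the members was not tested. The members that rose were the C1q chains, the haemoglobin scavenger receptor CD163, the mannose receptor MRC1, the phosphatidylserine receptor TIMD4 and CSF1R.

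C1QC was measured at 39.2 to 261 TPM in the 12 NC MAD libraries (median 92.6) and at 70.2 to 689 TPM in the 36 WG MAD libraries (median 280). The ranges overlapped, but 35 of the 36 WG libraries lay above the NC median and 20 above the highest NC library, and the log2 fold change was 1.25 ± 0.22 (SE, edgeR adjusted p = 9.18e-05). C1QA lay at 11.8 to 82.2 TPM in NC (median 26.3) and 15 to 196 TPM in WG (median 71.8), a log2 fold change of 1.10 ± 0.26 (edgeR adjusted p = 0.00258). C1QB lay at 59.6 to 155 TPM in NC and 92.2 to 496 TPM in WG (median 231), and 27 of 36 WG libraries were above the highest NC library (0.95 ± 0.21, edgeR adjusted p = 0.00119). Whether the 3 chains differed in their change was not tested.

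CD163 had 43.5 to 177 TPM in NC MAD (median 70.3) and 65.6 to 341 TPM in WG MAD (median 187), with a log2 fold change of 0.95 ± 0.20 (edgeR adjusted p = 0.000575). MRC1 had 22.7 to 98.4 TPM in NC (median 43.1) and up to 201 TPM in WG (median 109), and 21 of 36 WG libraries exceeded the highest NC library (0.93 ± 0.18, edgeR adjusted p = 0.000347). TIMD4 had 0.0 to 4.48 TPM in NC (median 1.53) and 1.08 to 32.5 TPM in WG (median 3.67), with the largest log2 fold change of the tested members, 1.55 ± 0.44 (edgeR adjusted p = 0.0103). CSF1R changed least of the genes called, by 0.66 ± 0.19 (edgeR adjusted p = 0.0118), from a median of 45.6 TPM to 82.5 TPM. FOLR2 (0.33 ± 0.15, edgeR adjusted p = 0.118) and LYVE1 (0.15 ± 0.23, edgeR adjusted p = 0.698) did not pass the test. MARCO was below the filter in both groups, with medians of 0.476 TPM and 0.675 TPM. All 7 calls held with a term for the library set and among libraries at or above 88%.

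**Figure D2:**
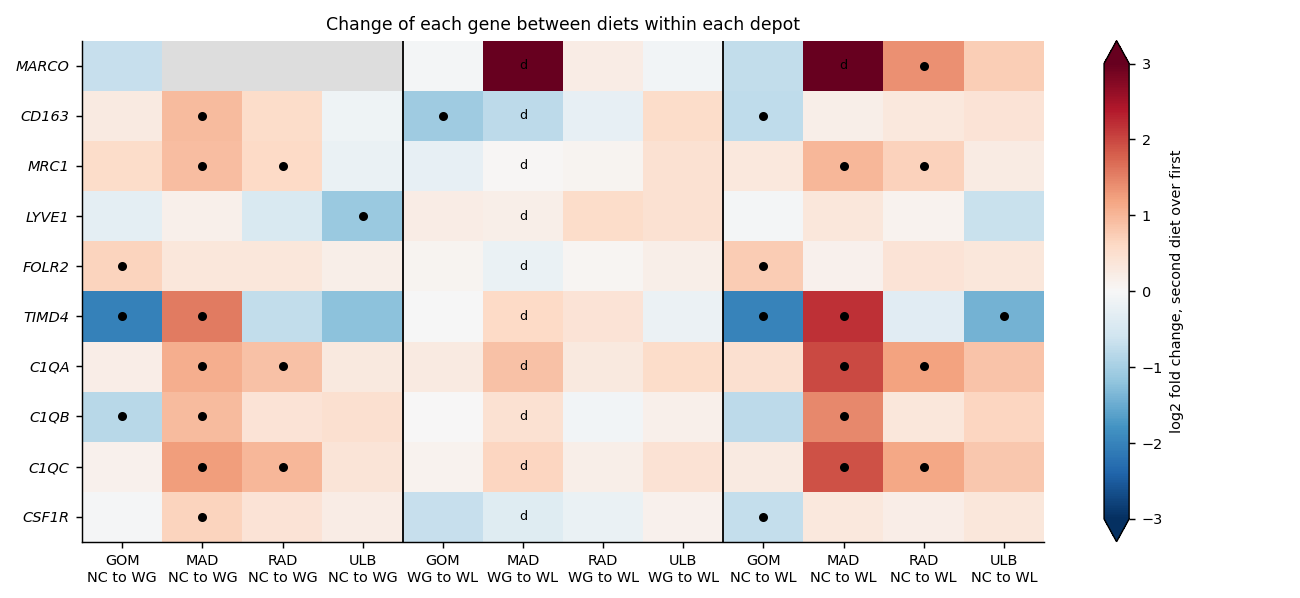
Log2 fold change of each gene, one below the other, between diets in each depot (side by side), second diet over first, in blue where lower and red where higher. Dots mark genes called by edgeR, d marks values given as a description with no test, and grey marks genes below the filter; MAD holds 7 dots from NC to WG and 5 from NC to WL. The dot of MARCO in RAD from NC to WL is a gene that passed the filter only through WL.

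In GOM the picture from NC to WG was mixed: 1 member rose and 2 fell of 10 tested, where 12.2% of PCGs were called higher and 14.5% lower. The share of members called was thus near that of all genes. The summed adipocyte markers had medians of 7210 TPM in NC GOM and 13400 TPM in WG GOM, and their part in these changes was not tested. TIMD4 had 1.70 to 54.1 TPM in NC (median 12.9) and 0.0 to 20.4 TPM in WG (median 4.76), and only 2 of the 45 WG libraries lay above the NC median (log2 fold change -2.03 ± 0.33, edgeR adjusted p = 2.79e-06). C1QB fell by 0.83 ± 0.21 on the log2 scale (edgeR adjusted p = 0.00203), from a median of 395 TPM to 330 TPM, and C1QA and C1QC had log2 fold changes of 0.19 ± 0.32 and 0.14 ± 0.23 and did not pass the test. FOLR2 lay at 33.8 to 49.4 TPM in NC (median 40.9) and at 11.7 to 135 TPM in WG (median 74.6), and it rose: 40 of the 45 WG libraries were above the highest NC library (0.66 ± 0.19, edgeR adjusted p = 0.0065). Among libraries at or above 88%, with 2 of NC, these calls of FOLR2 (0.86, edgeR adjusted p = 0.131), TIMD4 (-1.81, edgeR adjusted p = 0.0538) and C1QB (-0.82, edgeR adjusted p = 0.0933) were lost.

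In RAD 3 of 9 members rose from NC to WG and 0 fell, against 7.10% of PCGs higher and 9.60% lower. C1QC went from a median of 117 TPM to 255 TPM (1.00 ± 0.21, edgeR adjusted p = 0.000238), C1QA from 34.5 TPM to 66.0 TPM (0.89 ± 0.24, edgeR adjusted p = 0.00311) and MRC1 from 69.6 TPM to 120 TPM (0.60 ± 0.20, edgeR adjusted p = 0.0164). C1QB, with a log2 fold change of 0.41 ± 0.23, did not pass the test there (edgeR adjusted p = 0.167). The calls of MRC1 (0.48, edgeR adjusted p = 0.275) and C1QA (0.94, edgeR adjusted p = 0.0631) were lost among libraries at or above 88%. In ULB, where NC had 5 libraries, 0 of 9 members rose and 1 fell, against 0.507% of PCGs higher and 1.87% lower. That gene was LYVE1, with 58.7, 65.1, 66.8, 99.3 and 180 TPM in the NC libraries and 19.4 to 90.1 TPM in the 38 WG libraries (median 49.1), a log2 fold change of -1.11 ± 0.24 (edgeR adjusted p = 0.00443). The NC value of 180 TPM was replicate 2, and without that library the call was lost (-0.72 ± 0.26, edgeR adjusted p = 0.155). The summed lymphatic endothelial markers, all 5 of which were measured, had medians of 75 TPM in NC ULB (27.5 to 197) and 41.4 TPM in WG ULB (6.46 to 157), and their part in the change of LYVE1 was not tested.

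Whether a change differed between depots was tested in a single fit over all RNA-seq libraries, without a limit on fold. From NC to WG, 6 of 57 such tests of members passed, against 3.33% of all tests over 6 pairs of depots. TIMD4 was the member that differed most: its change in MAD exceeded that in GOM by 3.56 ± 0.56 on the log2 scale (edgeR adjusted p = 4.52e-06), and those in RAD and ULB fell short of that in MAD by 2.30 ± 0.54 (edgeR adjusted p = 0.00466) and 2.79 ± 0.62 (edgeR adjusted p = 0.00548). The change of C1QB was greater in MAD than in GOM by 1.75 ± 0.33 (edgeR adjusted p = 0.000168) and greater in RAD than in GOM by 1.22 ± 0.33 (edgeR adjusted p = 0.023), and that of C1QC greater in MAD than in GOM by 1.07 ± 0.31 (edgeR adjusted p = 0.0154). Most NC GOM libraries belonged to the set below 88%. Among libraries at or above 88% the differences called here numbered 3 of the 7 over both diet changes, with 2 NC GOM libraries left.

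The comparison of WG with WL pigs asks what differed after weight loss. In GOM 0 of 10 members rose and 1 fell, against 2.55% of PCGs higher and 2.71% lower. The gene was CD163, with 7.7 to 577 TPM in the 45 WG libraries (median 256) and 70.5 to 210 TPM in the 10 WL libraries (median 128). All 10 WL libraries lay below the WG median, and the log2 fold change was -1.06 ± 0.27 (edgeR adjusted p = 0.00796). The WL GOM libraries with a PCG share below 88% had 70.5 to 143 TPM (median 97.7, n = 6) and the others 130 to 210 TPM (median 166, n = 4), against a median of 259 TPM in the 42 WG libraries at or above 88%. With a term for the set the change was -0.61 (edgeR adjusted p = 0.24). Among libraries at or above 88%, with 4 of WL, it was -0.74 (edgeR adjusted p = 0.235). The call was lost in both fits, and the part of the set was not tested. With the term, and among libraries at or above 88%, 1 member other than CD163 was called in each fit. In the fit over all libraries CSF1R, with -0.68 ± 0.26, did not pass the test (edgeR adjusted p = 0.0886).

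In RAD 0 of 10 members passed the test from WG to WL, against 2.24% of PCGs higher and 4.13% lower, and in ULB also 0 of 10, against 3.22% higher and 4.90% lower. MARCO, counted in both depots, passed the filter there only through WL and is a description. The log2 fold changes of the members lay between -0.24 and 0.56 in RAD and between -0.18 and 0.56 in ULB, and 5 of these 20 tests, all in ULB, had an unadjusted p under 0.05 in edgeR, while DESeq2 called 0. CD163 changed differently in ULB than in GOM, by 1.57 ± 0.38 on the log2 scale (edgeR adjusted p = 0.0125). Its median in ULB was 83.6 TPM in WG and 134 TPM in WL, and this was the 1 of 30 member tests that passed for differences from WG to WL between GOM, RAD and ULB, against 0.400% of all tests.

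In MAD the change from WG to WL chose the list, and it is described here without a test. All 10 genes passed the filter, where 8.26% of PCGs were called higher and 9.17% lower, and nothing is read from these shares. MARCO, a scavenger receptor of marginal zone and alveolar macrophages, had the largest change of the 10, a log2 fold change of 3.71 ± 0.56 (SE). The others lay between -0.79 for CD163 and 0.87 for C1QA, with C1QC at 0.64, TIMD4 at 0.60 and CSF1R at -0.37. MARCO was measured at 0.0 to 1.81 TPM in NC MAD (median 0.476), 0.0 to 10.7 TPM in WG MAD (median 0.675) and 0.367 to 72.2 TPM in WL MAD (median 4.27). The rise was uneven: 3 of the 10 WL libraries lay above the highest WG library, and the lower 5 lay between 0.367 and 1.95 TPM, within the range of WG. Those 3 all had a PCG share below 88%. WL MAD libraries below 88% had 0.61 to 72.2 TPM (median 11.7, n = 6) and the others 0.367 to 7.65 TPM (median 1.31, n = 4), with overlap. Among libraries at or above 88% MARCO was below the filter from WG to WL. The part of the library set in the rise was not tested.

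The high MARCO libraries also held transcripts of lymphocytes. In WL replicates 1 to 10 MARCO was at 16.7, 7.65, 0.61, 0.729, 6.6, 39.6, 72.2, 0.672, 1.95 and 0.367 TPM. The summed level of the B and plasma cell markers MS4A1, CD79A, CD79B and JCHAIN in the same libraries was 2280, 243, 82.4, 138, 324, 3160, 7650, 61.0, 67.6 and 78.4 TPM. The same 5 libraries were highest in both, and replicates 7, 6 and 1 led both in that order. The 4 T cell markers measured summed to 539, 585 and 255 TPM in replicates 7, 6 and 1 and to 27.6 to 65.5 TPM in the other 7. Over MAD the B and plasma cell sum had medians of 44.3 TPM in NC, 50.8 TPM in WG and 191 TPM in WL, with 0 of the 4 markers at a median of 0. The WG MAD library with the most MARCO, 10.7 TPM, was also the one with the highest sum of its group, 3890 TPM. Of the lymph node stroma list only CCL19 was matched, with 33.3 to 589 TPM in WG and 96.4 to 927 TPM in WL. The part of lymphoid tissue in the level of MARCO was not tested.

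**Figure D3:**
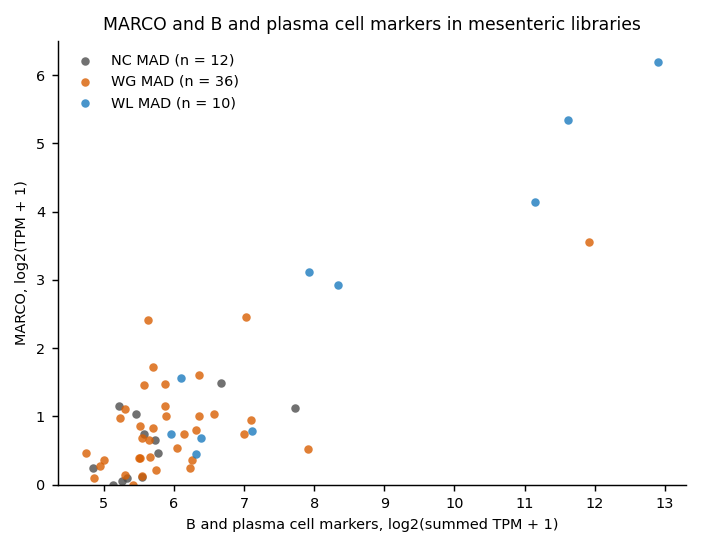
MARCO against the summed B and plasma cell markers in each MAD library, both as log2(TPM + 1), coloured by diet. The 3 WL libraries at the upper right hold 16.7, 39.6 and 72.2 TPM of MARCO, and the WG library nearest to them 10.7 TPM.

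Leaving out the 5 libraries of the series whose B and plasma cell sum exceeded 1000 TPM (3 in WL MAD, 1 in WG MAD and 1 in NC GOM, a choice made after seeing the data) left 7 WL MAD libraries with 0.367 to 7.65 TPM of MARCO (median 0.729), against 0.0 to 4.48 TPM in 35 WG MAD libraries (median 0.675). The ranges overlapped, and the log2 fold change was 1.5 ± 0.51 in place of 3.71. Without these libraries TIMD4 stood at -0.81 from WG to WL in MAD in place of 0.60, CD163 at -0.45 in place of -0.79, and C1QA at 0.58 in place of 0.87. With the libraries below 88% left out, CD163 stood at 0.0 ± 0.3. All of these are descriptions.

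From NC to WL, which compares weight-reduced pigs with pigs that were never obese, 5 of 9 members with a test rose in MAD and 0 fell, against 15.2% of PCGs higher and 17.8% lower. C1QA had 11.8 to 82.2 TPM in NC and 65.0 to 231 TPM in WL (median 135), and 11 of 12 NC libraries lay below the lowest WL library (log2 fold change 1.99 ± 0.32, edgeR adjusted p = 8.06e-05). C1QC (1.91 ± 0.30, edgeR adjusted p = 5.52e-05) and C1QB (1.43 ± 0.25, edgeR adjusted p = 0.00016) rose with it, to medians of 461 TPM and 348 TPM. TIMD4 had 1.76 to 31.6 TPM in WL (median 3.21) and a log2 fold change of 2.19 ± 0.61 (edgeR adjusted p = 0.00566), and MRC1, with a WL median of 121 TPM, one of 0.99 ± 0.22 (edgeR adjusted p = 0.0014). Without the libraries high in B and plasma cell markers the call of TIMD4 was lost, at 0.60 ± 0.51 (edgeR adjusted p = 0.38), and the other 4 genes held theirs, with C1QA at 1.6 ± 0.33 (edgeR adjusted p = 0.00176), C1QC at 1.48 ± 0.29, C1QB at 1.03 ± 0.23 and MRC1 at 0.97 ± 0.25. CD163, which was higher in WG than in NC, stood at 23.6 to 321 TPM in WL (median 79.0) and at 0.17 ± 0.35 over NC, and did not pass the test (edgeR adjusted p = 0.719). MARCO is a description here too, at 4.59 ± 0.90 over NC.

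In GOM 1 of 10 members rose and 3 fell from NC to WL, against 15.4% of PCGs higher and 20.7% lower. FOLR2 had 61.1 to 104 TPM in the WL libraries (median 89.5), all above the highest NC library at 49.4 TPM, and a log2 fold change of 0.75 ± 0.10 (edgeR adjusted p = 3.11e-06). TIMD4 fell by 2.01 ± 0.52 (edgeR adjusted p = 0.00266), CD163 by 0.76 ± 0.26 (edgeR adjusted p = 0.0185) and CSF1R by 0.72 ± 0.24 (edgeR adjusted p = 0.015). In RAD 3 of the 9 members other than MARCO rose and 0 fell, against 10.2% higher and 16.6% lower: C1QA by 1.2 ± 0.20 (edgeR adjusted p = 7.15e-05), C1QC by 1.17 ± 0.20 (edgeR adjusted p = 0.000108) and MRC1 by 0.69 ± 0.20 (edgeR adjusted p = 0.00874). MARCO lay at 0.0 to 0.988 TPM in NC RAD and 0.323 to 2.58 TPM in WL RAD, with overlap, and is a description there because it passed the filter only through WL. In ULB 0 of 10 rose and 1 fell, against 5.39% higher and 9.37% lower. MARCO, counted among the 10, passed the filter there only through WL and is a description. TIMD4 had 2.95, 3.11, 5.43, 7.52 and 8.87 TPM in NC and 0.646 to 4.30 TPM in WL (median 2.37), a log2 fold change of -1.42 ± 0.40 (edgeR adjusted p = 0.02), and the call was lost without the library at 8.87 TPM (-1.28 ± 0.43, edgeR adjusted p = 0.0513). With a term for the library set TIMD4 in MAD from NC to WL stood at 0.92 (edgeR adjusted p = 0.274), and among libraries at or above 88% the calls of CD163 in GOM (-0.39, edgeR adjusted p = 0.447) and of MRC1 in RAD (0.67, edgeR adjusted p = 0.0746) were also lost.

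CD163 split by the library set in WL MAD and WL RAD, and in the other groups with libraries of both sets the values overlapped. In WL MAD it had 23.6 to 79.4 TPM in the 6 libraries with a PCG share below 88% and 81.4 to 321 TPM in the 4 others, with no overlap. In WL RAD the values were 50.7 and 69.7 TPM in the 2 libraries below 88% and 91.5 to 326 TPM in the other 8, again with no overlap. C1QA in WL MAD, by contrast, had 67.2 to 231 TPM below 88% (median 172) and 65.0 to 178 TPM above (median 94.8), with overlap. In NC GOM, CD163 had 71.0 to 351 TPM in the 7 libraries below 88% and 118 and 256 TPM in the 2 others. In NC ULB it had 36.9 and 112 TPM below 88% and 64.6 to 180 TPM above, with overlap. C1QC there had 88.5 and 130 TPM below 88% and 175 to 317 TPM above, with no overlap. The part of the library set in these levels was not tested beyond the fits given here.

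**Figure D4:**
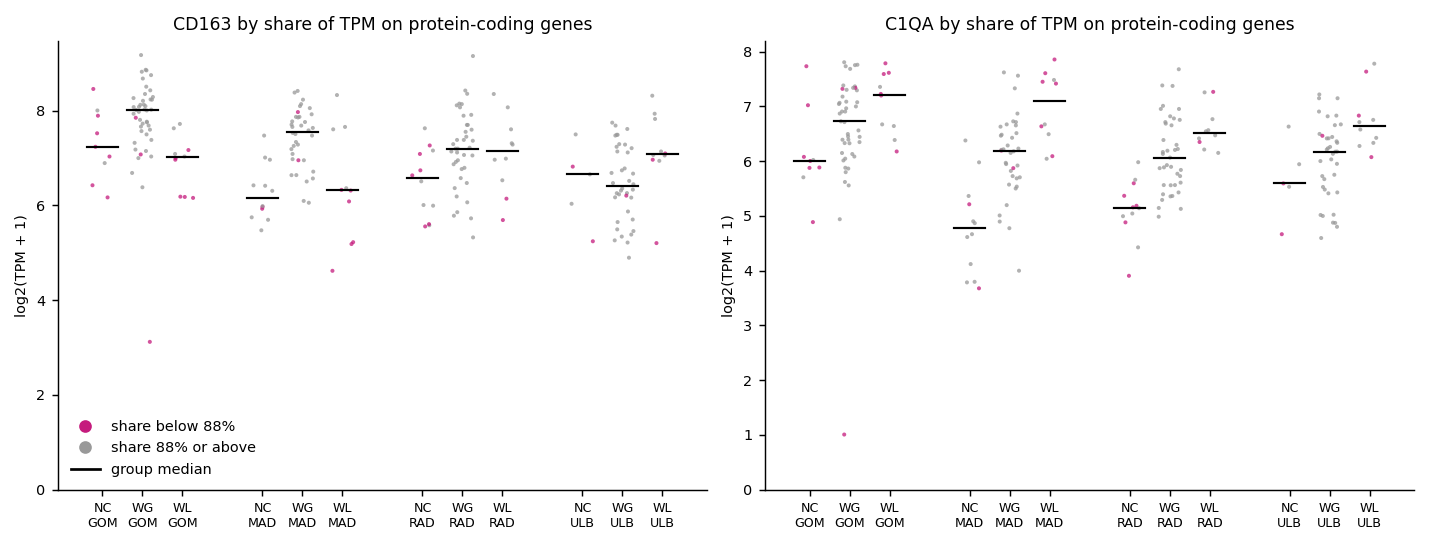
CD163 (left) and C1QA (right) in every library as log2(TPM + 1), by diet and depot, coloured by the share of summed TPM on protein-coding genes, with a black line at the group median. In WL MAD the 6 libraries below 88% hold at most 79.4 TPM of CD163 and the 4 others at least 81.4 TPM, while for C1QA the sets overlap.

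Within the C1q genes, the ratio of C1QB to the other chains varied between diets, depots and library sets. The log2 ratio of C1QB to C1QC had a median of 0.71 in NC GOM (0.34 to 0.91, n = 9), -0.61 in WG GOM (-1.54 to 0.71, n = 45) and -0.43 in WL GOM (-1.07 to -0.09, n = 10), so the ranges of NC and WL GOM did not overlap. In MAD its medians were 0.44 in NC, -0.05 in WG and -0.40 in WL. In ULB the order was another: NC had the lowest median (-0.93), followed by WL (-0.81) and WG (-0.25). The ratio also went with the library set: in NC ULB it was 0.55 to 0.59 in the 2 libraries below 88% and -1.22 to -0.93 in the 3 others, and in WL RAD -0.32 to -0.19 in 2 and -1.53 to -0.48 in 8, with no overlap in either group. Of the 9 NC GOM libraries 7 were below 88%, with 0.34 to 0.91, and the 2 others had 0.85 and 0.88. The ratio of C1QC to C1QA varied less, with medians of 1.81, 2.0 and 1.70 in GOM and 1.79, 1.96 and 1.59 in MAD. These ratios are descriptions on TPM and were not tested.

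Between depots of the same diet, most members were higher in GOM than in MAD and RAD in NC pigs, and fewer differed between GOM and ULB. MRC1 had a median of 90.3 TPM in NC GOM and 93.8 TPM in NC ULB. In NC, 21 of 57 tests of members over the 6 pairs of depots passed, against 13% of all tests, and 3 of the 21 were of MARCO. MARCO passed the filter only through GOM, where it is high, so it is a description here: it had 0.665 to 24.9 TPM in GOM (median 4.15) and at most 1.81 TPM in the other depots, with overlap. Of the other 9 members, 7 were lower in MAD than in GOM and 7 in RAD, while in ULB 2 were lower and 1 was higher. Of all PCGs tested, 10.2% were lower in MAD and 9.59% in RAD. In ULB, where NC had 5 libraries, 12.1% were lower and 13.3% higher, so the count of members there was near that of all genes. TIMD4 had a log2 fold change of -3.47 from GOM to MAD (edgeR adjusted p = 0.000147), and C1QB was 4.48-fold higher in GOM (edgeR adjusted p = 8.53e-06). FOLR2 went the other way, 1.76-fold higher in ULB than in GOM (edgeR adjusted p = 0.000548). Deviations of NC GOM and NC ULB libraries of the same number correlated weakly (median 0.13 over 4 pairs). With the number as a block the calls of C1QB and TIMD4 between these depots were lost (edgeR adjusted p = 0.0583 and 0.491). That of FOLR2 held (edgeR adjusted p = 0.0438). Mesothelial tissue covers the omentum, and its marker WT1, the only listed one matched, had medians of 71.8 TPM in NC GOM and 8.46 TPM in NC MAD, and the summed adipocyte markers had medians of 7210 and 14900 TPM in the same groups. Their part in these differences was not tested. Among libraries at or above 88%, where NC GOM kept 2, 11 of the 16 calls against MAD and RAD, MARCO included, were lost, with log2 fold changes from -1.83 to -0.55. C1QB had 485 to 579 TPM in these 2 libraries and 72.1 to 155 TPM in the 10 NC MAD libraries at or above 88%, and its call held.

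In WG, 15 of 56 tests between depots passed, against 10.8% of all tests, and 2 of the 15 were of MARCO. It again passed the filter only through GOM and is a description, with medians of 4.37 TPM in GOM, 0.921 TPM in RAD and 0.607 TPM in ULB. CD163 was lowest in ULB, 2.4-fold below GOM (edgeR adjusted p = 9.57e-10), 1.78-fold below MAD (edgeR adjusted p = 4.9e-06) and 1.68-fold below RAD (edgeR adjusted p = 0.00054). LYVE1 was lower in RAD than in GOM by 2.16-fold (edgeR adjusted p = 6.45e-08) and than in MAD by 1.81-fold (edgeR adjusted p = 0.000339). In WL, 8 of 57 tests passed, against 10.1% of all tests. MARCO was 5.01-fold higher in GOM than in RAD (edgeR adjusted p = 0.00999) and LYVE1 1.75-fold (edgeR adjusted p = 0.0103), and FOLR2 was 1.7-fold higher in ULB than in MAD (edgeR adjusted p = 0.00616). Without the libraries high in B and plasma cell markers FOLR2 stood at 0.56 on the log2 scale there (edgeR adjusted p = 0.0182), under the limit on fold. With a term for the library set MARCO stood at -1.24 from GOM to RAD in WL and did not pass (edgeR adjusted p = 0.209). Among libraries at or above 88%, 0 members were called in WL between GOM and RAD or between MAD and ULB. WL GOM and WL MAD kept 4 libraries each there. Deviations of WL MAD and WL RAD libraries of the same number correlated as well (median 0.41 over 10 pairs). With the block 2 members passed between these 2 groups where 0 had without it.

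Genes around the members moved in part with them. Of the lipid-associated macrophage genes, which mark the macrophages that gather at dying adipocytes, 5 of 6 rose in MAD from NC to WG, 5 of 6 in RAD, 2 of 6 in GOM and 0 of 6 in ULB, against 5.38%, 7.10%, 12.2% and 0.507% of all PCGs, and 0 fell. SPP1, which encodes osteopontin, went from 10.7 to 209 TPM in NC MAD (median 44.2) to 40.5 to 1900 TPM in WG MAD (median 403), a log2 fold change of 2.93 ± 0.52 (edgeR adjusted p = 9.51e-05). GPNMB, with 1.24 ± 0.29 (edgeR adjusted p = 0.00222), and the tetraspanin CD9, with 0.73 ± 0.23 (edgeR adjusted p = 0.0225), rose there too. Of the scavenger and efferocytosis receptors 5 of 7 rose from NC to WG in MAD, led by MSR1 at 2.08 ± 0.37 (edgeR adjusted p = 0.000107), with STAB1 at 0.84 ± 0.18 (edgeR adjusted p = 0.000832) and VSIG4 at 0.78 ± 0.22 (edgeR adjusted p = 0.0105). TIMD4, itself a member, is counted in both numbers and in the median of this list. HMOX1, which degrades the haem that CD163 brings in, rose by 1.79 ± 0.31 (edgeR adjusted p = 9.04e-05), and it was the 1 of 5 measured haem and iron genes to do so. The growth factor CSF1 rose in MAD by 1.02 ± 0.23 from NC to WG (edgeR adjusted p = 0.00143) and so did IRF8, a myeloid and B cell transcription factor (0.74 ± 0.22, edgeR adjusted p = 0.0158). From WG to WL in MAD, where no test is given, CSF1 stood at -0.85 ± 0.25 and IRF8 at 1.42 ± 0.26. Of the 4 measured partners of C1q, 0 changed from NC to WG in MAD. The medians of these lists in MAD from NC to WG were 1.35 (lipid-associated), 0.78 (scavenger), 0.74 (CSF1R ligands and myeloid factors), -0.09 (haem and iron) and 0.04 (C1q partners), against -0.01 over all genes.

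Across all RNA-seq libraries, after the mean of each group was taken off log2(TPM + 1), the members formed more than 1 set. C1QA and C1QC had the highest Pearson correlation, 0.88, and CD163 and MRC1 followed at 0.81. CSF1R was near 0 with MRC1 (-0.04), CD163 (-0.01), C1QA (-0.02) and MARCO (0.02), and reached 0.64 with C1QB and 0.48 with TIMD4. FOLR2 and CSF1R had the lowest value, -0.17. These values are descriptions, and the libraries share pigs, depth and the library sets. The genes most like each member, of 12301 with a symbol, were NLRP3, SYTL4 and ANKRD46 for CD163 (0.73 to 0.68), NLRP3, TLR2 and VSIG4 for MRC1 (0.79 to 0.75), GPR34, VSIG4 and FZD3 for LYVE1 (0.54 to 0.50), CLEC3B, ATRAID and USE1 for FOLR2 (0.77 to 0.76) and CD209, FYB1 and LCP2 for TIMD4 (0.65 to 0.62). They were TNFAIP8L2, C12orf57 and GLA for C1QA (0.80 to 0.79), GIMAP4, FCER1G and TYROBP for C1QB (0.79 to 0.78), VSIG4, NCKAP1L and NCF4 for C1QC (0.81 to 0.78) and GRN, TNFRSF1B and CST3 for CSF1R (0.87 to 0.86). MARCO was most like CD2, CD244 and FCRL3, each at 0.55, genes of lymphocytes and natural killer cells.

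Hi-C, which counts contacts between parts of the genome, was deposited as an A-B index for each bin of 20 kb, positive in the active compartment A and negative in compartment B, in 240 libraries. The protocol kept the layer of floating adipocytes, so the index is not one of macrophages, and its change was not chosen by the expression values. The 10 gene starts fall in 9 bins, since C1QA and C1QC share one. The bin of CSF1R had the highest index, with a median of 7.7, and it was above 0 in 240 of 240 libraries, as were those of FOLR2, LYVE1 and the C1q genes. The bin of CD163 was below 0 in all 240, with a median of -4.58 and a range from -6.56 to -1.49. Those of MARCO and TIMD4 were above 0 in 21 and 6 of 240 and that of MRC1 in 224.

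From NC to WG 2 of 36 tests of member bins passed (limma adjusted p below 0.05 and a difference above 0.75), against 4.43% of all bins, and from WG to WL 3 of 27 in GOM, RAD and ULB, against 5.44%. From NC to WL 6 of 36 passed, against 12.7%. FOLR2 held 5 of these 11 calls, all higher. Most called bins rose in these comparisons, other than from WG to WL in ULB, where 3304 of all bins were higher and 7975 lower. From NC to WL in RAD 17254 were higher and 667 lower, with a median difference of 0.285. The FOLR2 bin in RAD had a mean of 3.47 ± 0.34 (SD, n = 12) in NC, 4.27 ± 0.533 (n = 40) in WG and 5.16 ± 0.474 (n = 10) in WL, and the difference from NC to WL was 1.69 ± 0.18 (SE, limma adjusted p = 1.24e-07). The bin of CD163 fell from WG to WL in GOM by 0.89 ± 0.20 (limma adjusted p = 0.00162) and in ULB by 0.90 ± 0.20 (limma adjusted p = 0.000579). The expression of CD163 was called lower in GOM in that comparison. That call was lost with a term for the library set and with that set left out. In ULB its expression did not pass the test (0.54 ± 0.25, edgeR adjusted p = 0.129). The index is one of floating adipocytes, and its relation to the expression of CD163 was not tested. With the index also quantile normalized between libraries, 3 bins passed in place of 11, and FOLR2 in RAD from WG to WL (0.82, limma adjusted p = 0.00046) and from NC to WL (1.34, limma adjusted p = 1.36e-06) were the calls shared. The calls of CD163 were lost (-0.61 in GOM and -0.31 in ULB), and the bin of MRC1 in GOM passed as lower from NC to WL (-1.03, limma adjusted p = 0.0201).

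**Figure D5:**
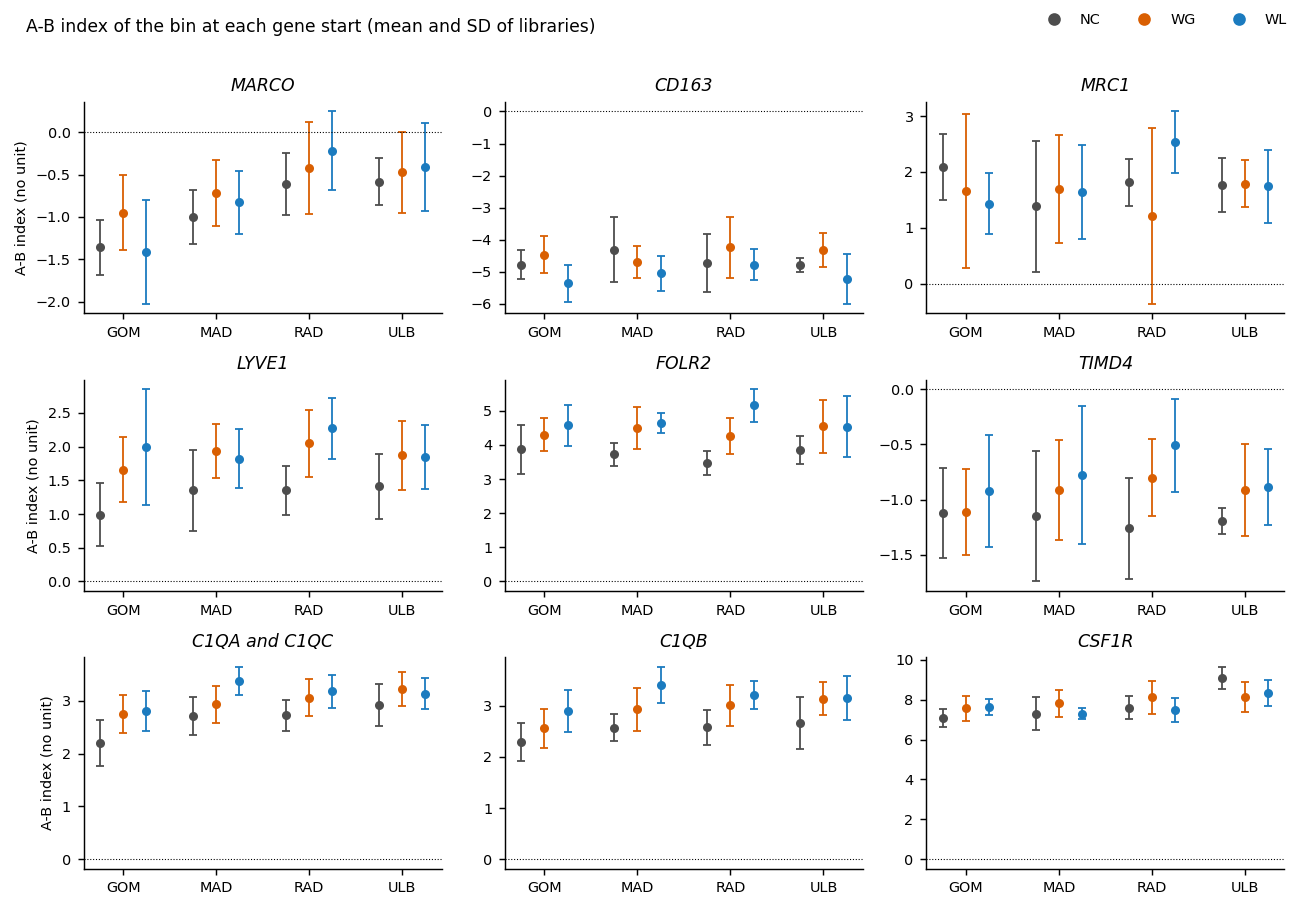
A-B index (no unit) of the 20-kb bin at the start of each gene, as mean and SD of the Hi-C libraries, by depot and diet, with a dotted line at 0 between compartments. CD163 lies below 0 in all 12 groups, and FOLR2 in RAD climbs from a mean of 3.47 in NC to 5.16 in WL.

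H3K27ac, a histone mark of active enhancers, was deposited as 18 tables of enhancer regions called with ROSE, each pooled over the samples of a group or WG subgroup, so the values have no replicates and no test. A region within 10 kb was listed in 18 of 18 tables for MRC1 and CSF1R, 17 for the C1q genes, 16 for MARCO, 15 for FOLR2, 14 for CD163, 11 for LYVE1 and 10 for TIMD4. The regions of FOLR2 were super-enhancers in all 4 NC tables, where they spanned 185.4 to 266.8 kb and ranked within the top 2.1%, and in 0 of the WG and WL tables, where those listed spanned 11 to 88.8 kb. CSF1R had a super-enhancer in 5 tables, all of RAD or ULB, and MRC1 in 2, both of ULB. Of all regions in a table, 1.98% to 6.79% were super-enhancers. How often other genes had a region within 10 kb was not counted. Spans as long as those of FOLR2 in NC can hold other genes as well. Each NC depot had fewer H3K27ac samples than the same depot of WG, whose samples were split over subgroups. Against WL, NC had fewer in GOM, MAD and RAD and more in ULB. For NC MAD there was no other sample to pool. The part of sample number in the spans and super-enhancer marks was not tested. The C1q region spanned 11.2 to 46.6 kb and ranked at best in the top 6.0%, and MARCO at best in the top 16.2%, in NC RAD, and at 61.4% in WL MAD.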

How the data were processed

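RNA-seq, Hi-C and H3K27ac ChIP-seq data of whole adipose tissue or, for Hi-C, floating adipocytes were analysed as deposited. The authors quantified strand-specific RNA-seq with kallisto 0.43.0 on Sscrofa11.1 and deposited estimated counts and TPM for each gene. Estimated counts were not whole (0.0% of nonzero values) and were rounded. The authors deposited the A-B index, a score without fixed range, for each 20-kb bin, made from contact matrices. The deposited ROSE tables hold the enhancer signal (read density) of regions called on pooled samples, after mapping with BWA 0.7.15 and SAMtools 1.3.1 and peak calling with SICER, per the submitters' processing notes. In each RNA-seq and Hi-C table, 9 columns matched no sample label and were not used.

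A gene entered a comparison if 80% or more of the libraries in either group exceeded 0.5 TPM, and was tested with edgeR 4.0.16 (TMM, quasi-likelihood) under R 4.3.3, with Benjamini-Hochberg adjustment over all genes tested, and was called if it changed more than 1.5-fold with an adjusted p under 0.05. Differences of a diet change between depots were tested in 1 fit with no limit on fold. The A-B index was tested with limma 3.58.1 (adjusted p below 0.05, difference above 0.75). Each diet was compared within each depot, and each depot within each diet. Alternatives were DESeq2 1.42.0, RLE size factors, no low-value filter, no fold limit, the replicate block, a term for the library set (PCG share of TPM below 88%), that set left out, each NC ULB replicate left out, and for the index quantile normalization, a limit of 0.5 and the mean of all bins of a gene. Leaving out libraries with a B and plasma cell sum above 1000 TPM, and the library with the fewest counts, was chosen after seeing the data. A listed marker is not reported here and was left out of its sum. Scripts were tested on simulated data. The members and the gene lists were chosen with earlier results of these data known. All 10 members are named, with the 3 genes most correlated with each, and list genes by a rule on their calls. Windows before gene starts came from the RefSeq annotation and genome of Sscrofa11.1.

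The labels number the replicates but do not say that a number marks a pig, so p-values measure the spread between these samples. The correlation of the deviations of same-numbered libraries exceeded 0.1 in every pair in 4 of 18 comparisons of depots: NC GOM with ULB (median 0.13), WG MAD with ULB (0.63), WG RAD with ULB (0.6) and WL MAD with RAD (0.41). In the other WG comparisons nearly all pairs did. These were 35 of 36 for GOM with MAD (median 0.66) and 37 of 39 for GOM with RAD (0.59). For GOM with ULB they were 37 of 38 (0.62), and for MAD with RAD 30 of 31 (0.66). Medians of the other NC and WL comparisons lay between 0.1 and 0.33. Fits without the block treat same-numbered libraries as independent. Numbers do not pair diets, which came from different pigs. Counts per library limit precision as given at the start of the results.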

Additional observations from a re-analysis of the deposited data

Results flagged for a closer look

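A single library stood apart in 3 of the 60 groups of TPM values tested and in 4 of the 54 of the A-B index, where chance alone flags about 1 in 20 groups. In WL GOM the highest MARCO value was 30.0 TPM and the highest MRC1 value 227 TPM, and in NC GOM the highest TIMD4 value was 54.1 TPM. For the A-B index these were the lowest MARCO bin in WL ULB (-1.56), the highest CD163 bin in NC ULB (-4.41), the highest TIMD4 bin in NC GOM (-0.126) and the lowest bin of C1QA and C1QC in WL RAD (2.5).

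The change from NC to WG differed between depots, by the test of the difference in edgeR, for TIMD4 in MAD minus GOM (3.56), RAD minus MAD (-2.3) and ULB minus MAD (-2.79), for C1QB in MAD minus GOM (1.75) and RAD minus GOM (1.22), and for C1QC in MAD minus GOM (1.07), all on the log2 scale. The change from WG to WL differed for CD163 in ULB minus GOM (1.57). Among libraries at or above 88% the differences of C1QB (1.83 and 1.43), C1QC (0.83) and CD163 (1.4) did not pass the test, with edgeR adjusted p of 0.0907, 0.195, 0.354 and 0.263.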

How the results depend on the processing

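Between diets 29 tests of members passed, 1 of them of MARCO in RAD through the filter in WL alone, and 17 did with the replicate block, 13 of them among the 29, which for diets joins different pigs that share only a number. No other alternative moved that count by over 1.5 times, and leaving out single NC ULB libraries gave 28 to 31. Between depots 44 passed, 5 of them of MARCO through the filter in GOM alone, 48 with the block and 25 among libraries at or above 88%, and 43 to 44 without single NC ULB libraries. In the comparisons where every same-numbered pair was correlated above 0.1, the block gave 1 call in place of 4 for NC GOM with ULB and 2 in place of 0 for WL MAD with RAD. The counts for MAD with ULB and RAD with ULB in WG were the same. Differences between depots numbered 7, against 24 with the block, 4 among libraries at or above 88%, and 7 to 9 without single NC ULB libraries. Of the member bins of the A-B index 11 passed, against 3 after quantile normalization, 20 with a difference above 0.5 and 8 with the block, and 11 without any single NC ULB library. Among libraries at or above 88%, TIMD4 turned to 0.03 from GOM to ULB and to 0.19 from MAD to ULB in WL. There 9 calls between diets and 18 between depots were lost in addition, and 5 and 10 with a term for the set. The set left out removes libraries, and the cause of the losses was not tested. MRC1 between NC MAD and ULB (0.95, edgeR adjusted p = 0.0691) was lost without NC ULB replicate 2, and TIMD4 between NC GOM and ULB without replicate 2, 5, 7 or 9 (edgeR adjusted p = 0.0888, 0.066, 0.0604 and 0.0538).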
